A study of Mus musculus with 18 samples.

Results

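The obesity effect of failing islets was set against that of compensating islets at 16 weeks of age. For each gene the difference between C57BL/KsJ db/db and lean C57BL/KsJ control islets (the db/db effect) was compared with the difference between C57BL/6J ob/ob and lean C57BL/6J control islets (the ob/ob effect). The members are the 8 arrays of 16-week islets in the larger of the deposited tables, 2 for each of these 4 groups, of 18 samples in all. They measured 15526 genes above a filter on dim signals. The other 8 arrays of that table, from 6-week mice of the same strains and genotypes, lent their spread to the test and gave the same comparison at the younger age. The last 2 samples, a lean KsJ and a db/db array of 16 weeks in a smaller table, gave a separate reading of the db/db effect. The labels name isolated, handpicked pancreatic islets and give no sex, no number of mice behind an array and no promoter or transgene. All groups share free access to food, and the controls of each model are age-matched lean mice of its own strain.

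Both mutations act on leptin, the fat-derived hormone that restrains feeding: the ob mutation removes the hormone itself, and the db mutation the long form of its receptor. Mice of both kinds become obese and insulin resistant and call on their islets for more insulin. Islets of 6J ob/ob mice are known to enlarge and keep up with that demand, whereas those of KsJ db/db mice are known to lose beta-cell function, and the series title calls the models diabetes-resistant and diabetes-prone. Strain, mutated gene and outcome differ together here and cannot be told apart. Sample titles in the larger table also carry a code that is shared by every KsJ array and differs from the code shared by every 6J array. What the code stands for is not given, and its effect cannot be told apart from that of strain.

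The 4 groups were not equally even. Across clusters, the 2 lean KsJ arrays correlated at 0.916, against 0.968 to 0.980 in the other 16-week groups, and their values spread less (SD 2.34 and 2.24, against 2.43 to 2.48). Lean KsJ replicate 2 had the highest mean of 25 acinar cell genes, 11.86 against 8.88 on replicate 1, with Ctrc, a digestive enzyme gene picked with its values in view, at 13.20 against 9.53. In db/db islets the mean of 25 genes of intestinal absorptive cells was 5.92 and 8.19 on replicates 1 and 2, against 3.89 to 5.24 on the lean KsJ arrays and 3.91 to 4.13 on the 6J arrays of that age. Lean KsJ replicate 1 alone among the 16-week arrays had a low level of Xist (3.24, against 8.57 to 9.60) and a high level of the Y-linked Uty (7.86, against 2.17 to 2.61), and the labels do not give the sex of the mice. The islet hormone genes were high on every 16-week array, with Ins2 at 11.60 to 12.15, Gcg at 13.09 to 13.44, Sst at 12.97 to 13.37 and Ppy at 12.28 to 13.03. Among the 6-week arrays, whose spread enters the test, lean 6J replicate 2 stood apart, with an intestinal mean of 9.83 against 3.95 on its partner and a mean of goblet cell genes of 7.31 against 3.77. Because these arrays stand apart, counts of calls in the difference and of pattern members are given below with arrays left out. Fits without lean KsJ replicate 2 keep replicate 1 as the only lean KsJ array. The db/db effect there cannot be told apart from the difference in Xist and Uty on that array.

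**Figure D1:**
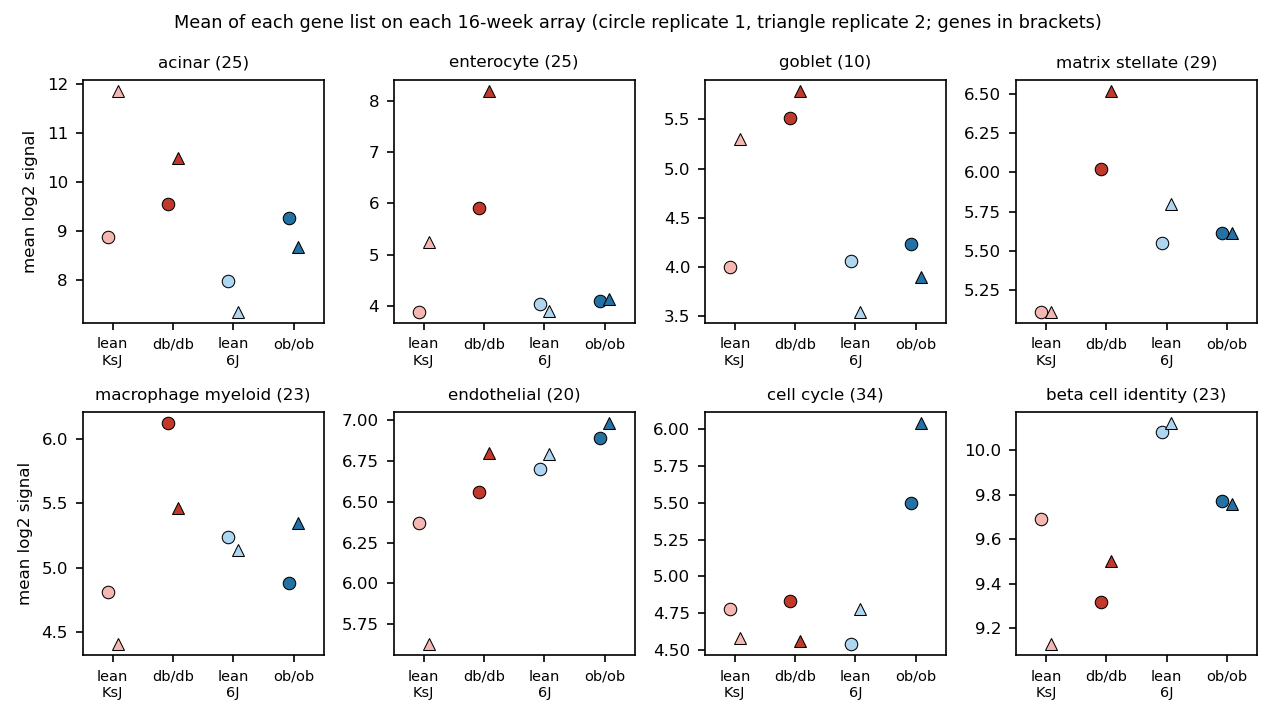
Mean log2 signal of 8 gene lists on each 16-week array, by group, with the number of genes in brackets. Acinar genes are highest on lean KsJ replicate 2 (11.86), intestinal genes on db/db replicate 2 (8.19), and cell cycle genes on the 2 ob/ob arrays (5.50 and 6.04).

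Of 15526 genes, 2 (0.0129%) passed the test of the difference of effects at an adjusted p below 0.05 (limma, Benjamini-Hochberg adjustment over all genes). Both, Sh2d5 and Hunk, had the more positive effect in db/db islets. At an adjusted p below 0.1 there were 27 genes (0.174%), 22 of them (0.142%) more positive in db/db, and an unadjusted p below 0.05 was reached by 2415 genes (15.6%). The count of 2 depended on the arrays: it was 3730 without lean KsJ replicate 1, 4 without replicate 2, 3 and 8 without db/db replicates 1 and 2, 0 without either lean 6J array, and 1 and 0 without ob/ob replicates 1 and 2. Leaving out a 6-week array, which changes no 16-week mean, gave 0 to 2 genes, and neither Sh2d5 nor Hunk was among them in any of these 8 fits. Among these 2415, 82.8% were more positive in db/db, but that share was 59.7% after quantile normalization of all clusters, 48.1% after quantile normalization of the tested genes, 63.5% with no filter on dim genes and 94.5% with a filter at the 50th percentile. The median difference over all genes was 0.25 on the log2 scale, made of a median db/db effect of 0.18 and a median ob/ob effect of -0.03. With genes ordered by mean signal into 10 equal bins, it was -0.25 in the dimmest bin and reached 0.41 in bin 8, and over all genes it was 0 after quantile normalization of the tested genes. Gene lists are therefore set beside the median of all genes. Within the models, 900 genes (5.8%) passed the test of the db/db effect, 826 (5.32%) higher and 74 (0.477%) lower, and 11 (0.0708%) passed that of the ob/ob effect, 2 (0.0129%) higher and 9 (0.058%) lower. These counts within models were not repeated with arrays left out or with another normalization. The median db/db effect was 0.05 after quantile normalization of all clusters and -0.04 after that of the tested genes. Between lean KsJ arrays the differences had an SD of 0.888, against 0.313 to 0.517 in the other 16-week groups, while the test shares its spread across groups. A call in db/db beside none in ob/ob is not a test of the difference between them. Of the 826 genes called higher in db/db, 268 had an ob/ob effect of at least 0.5 in the same direction, 531 one of under 0.5 in size, and 27 one of at least 0.5 in the opposite direction.

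Patterns were then set by size and separation, as a description without a test. A gene moved in a model when both obese arrays lay beyond both lean arrays. It was put to one model alone when its effect there was at least 1 (log2) and under 0.5 in size in the other, and to opposite directions when it moved both ways by at least 0.5. By this rule 694 genes (4.47%) belonged to db/db only, 588 up (3.79%) and 106 down (0.683%). Another 343 (2.21%) belonged to ob/ob only, 124 up (0.799%) and 219 down (1.41%). A further 226 (1.46%) moved in opposite directions, 169 of them (1.09%) up in db/db and down in ob/ob and 57 (0.367%) the reverse, whereas 920 (5.93%) moved the same way by at least 0.5 in both models. Across all 15526 genes the effects in both models, which share no array, correlated at 0.274 (Pearson) and 0.203 (Spearman). A small effect was not shown to be absent: the 95% interval of the ob/ob effect lay within 1 in 343 of the 588 genes up in db/db only. Membership depended on single lean arrays. Without lean KsJ replicate 1, where only 1 lean KsJ array had to be passed, 2273 genes belonged to db/db only and 927 to opposite directions. Without lean KsJ replicate 2, 282 of the 588 genes up in db/db only kept that pattern, with 68 of the 124 up in ob/ob only, 143 of the 219 down in ob/ob only and 92 of the 169 up in db/db and down in ob/ob. Of the 106 genes down in db/db only 33 kept the pattern, and of the 57 down in db/db and up in ob/ob 34 did.

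**Figure D2:**
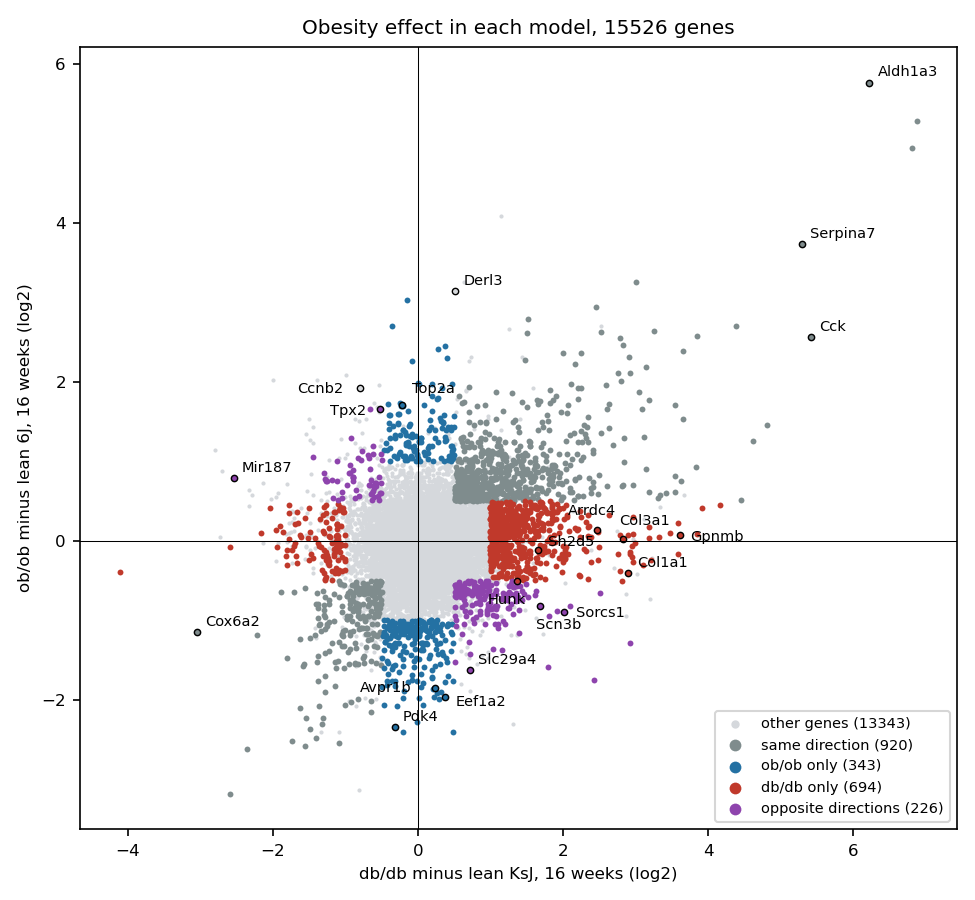
The db/db effect (horizontal axis) against the ob/ob effect (vertical axis) at 16 weeks, in log2 units, for 15526 genes, coloured by pattern. Most coloured genes lie in the upper right with the same direction in both models (920 genes in that class, up or down), along the right arm (db/db only), or along the vertical arms (ob/ob only); the opposite class (226 genes) fills the lower right and upper left.

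Sh2d5, which encodes an SH2 domain protein, and Hunk, which encodes a serine/threonine kinase, passed the test of the difference. Sh2d5 was at 5.47 and 5.41 on the lean KsJ arrays and 7.21 and 6.97 on the db/db arrays, and at 6.32 and 6.25 on the lean 6J arrays against 6.11 and 6.22 on the ob/ob arrays. Its lean KsJ arrays were the lowest and its db/db arrays the highest of the 8, while ob/ob and lean 6J arrays differed by little. The db/db effect was 1.65, the ob/ob effect -0.12 and the difference 1.77 ± 0.21 (SE; adjusted p = 0.0442), a 3.4-fold change of the ratio. Hunk was at 4.27 and 4.41 in lean KsJ, 5.65 and 5.76 in db/db, 5.1 and 5.37 in lean 6J and 4.78 and 4.71 in ob/ob islets. Groups did not overlap in either strain, and the ob/ob arrays lay below their lean controls. The effects were 1.37 and -0.50 and the difference 1.87 ± 0.23 (adjusted p = 0.0442), with the ob/ob effect just inside the limit of 0.5. The same difference can be read across strains, where lean KsJ islets were below lean 6J islets (by -0.84 for Sh2d5 and -0.90 for Hunk), and db/db islets were above ob/ob islets (by 0.92 and 0.97). These 4 comparisons each passed the test (adjusted p of 0.0193, 0.0201, 0.0277 and 0.0305, in that order). Sh2d5 and Hunk were picked for a difference made up of these same comparisons, so their calls are a description. On the separate pair of arrays db/db exceeded lean KsJ by 1.68 for Sh2d5 and 0.94 for Hunk. Settings that change only the filter, the variance model, the size threshold or the 6-week arrays cannot alter the difference of a gene. Over 32 other settings the difference of Sh2d5 ranged from 1.38 to 1.90 (adjusted p 0.00154 to 1, called in 10) and that of Hunk from 1.63 to 2 (adjusted p 0.00217 to 1, called in 8). Without lean KsJ replicate 2 both were called, at 1.73 and 1.93; neither was called without db/db replicate 1, either lean 6J array, either ob/ob array or any of the 8 arrays of 6 weeks. Without both doubted KsJ arrays the differences were 1.85 for Sh2d5 and 1.88 for Hunk. Fits without lean KsJ replicate 2 rest on replicate 1, the array with low Xist and high Uty, for all lean KsJ levels. In them the db/db effect cannot be told apart from that sex-linked difference.

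**Figure D3:**
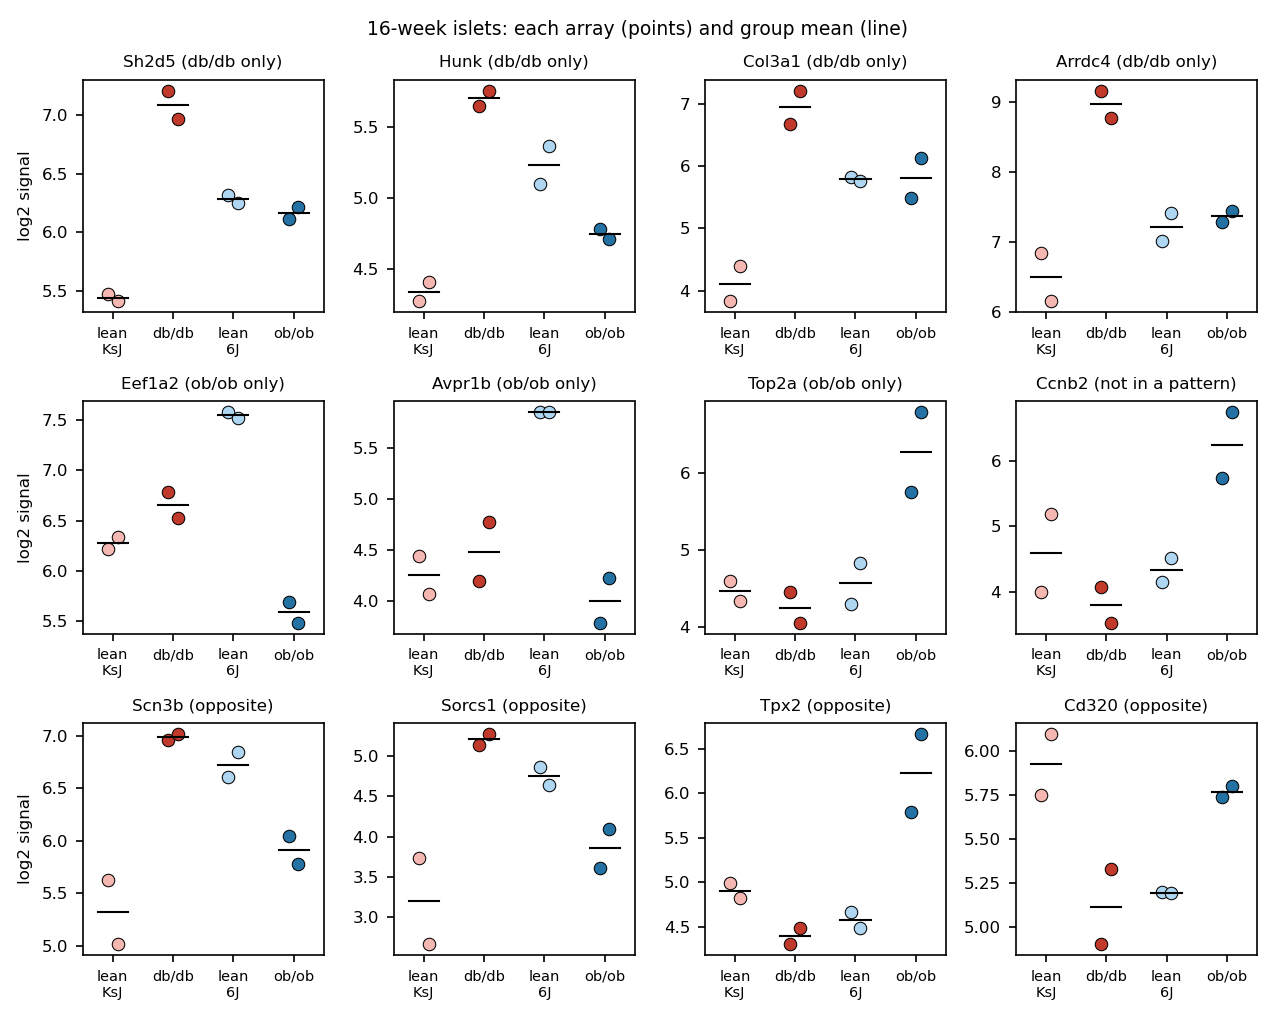
Log2 signal of 12 genes on each 16-week array (points) with the group mean (line), for lean KsJ, db/db, lean 6J and ob/ob islets. Sh2d5 and Hunk are high in db/db and low in lean KsJ; Eef1a2 and Avpr1b are high in lean 6J alone; Top2a, Ccnb2 and Tpx2 are high in ob/ob alone.

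Extracellular matrix genes made up part of the group that moved in db/db only. Of 27 tested genes of matrix and stellate cells, the fibroblast-like cells that lay down collagen in the pancreas, 12 were up in db/db only (3.79% of all genes were) and none had any other one-model or opposite pattern. The median db/db effect was 1.21 and the median ob/ob effect -0.09; 8 of the 27 were called in the db/db comparison (5.8% of all genes were) and none in the ob/ob comparison (0.0708%), and 14 had an unadjusted p below 0.05 for the difference in the direction of db/db, against 12.9% of all genes. Col3a1, a fibrillar collagen gene, was at 3.83 and 4.40 in lean KsJ and 6.68 and 7.21 in db/db islets, against 5.82 and 5.76 in lean 6J and 5.49 and 6.13 in ob/ob. The db/db arrays were above all others and the lean KsJ arrays below all others. Col3a1 rose in db/db by 2.83 (adjusted p = 0.0022), with an ob/ob effect of 0.02 and a difference of 2.81 ± 0.38 (adjusted p = 0.0526). Col1a1, which encodes a chain of the most abundant collagen, was at 4.57 and 4.69 in lean KsJ, 6.88 and 8.19 in db/db, 5.46 and 5.50 in lean 6J and 5.06 and 5.08 in ob/ob. It rose in db/db by 2.90 (adjusted p = 0.00768), with an ob/ob effect of -0.41 and a difference of 3.31 ± 0.49 (adjusted p = 0.058), and db/db exceeded ob/ob islets by 2.46 (adjusted p = 0.0145). Postn, the matricellular protein periostin, chosen after its values were seen, rose in db/db by 2.22 (adjusted p = 0.00989) with an ob/ob effect of -0.43. Among basement membrane collagens of the list, the db/db and ob/ob effects were 0.26 and 0.02 for Col4a1 and 0.79 and 0.21 for Col4a2. Over 32 settings the list's median difference lay between 0.91 and 1.46, and without lean KsJ replicate 2 it was 1.12 with 26 of 27 members above 0. In bulk islets more cells of a type and more RNA per cell cannot be told apart.

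Macrophage genes were also mostly up in db/db only. All 22 tested members of the myeloid list had a difference above 0, against 67.7% of all genes, 13 were up in db/db only (against 3.79% of all genes), and 5 were called in the db/db comparison (5.8%) and none in the ob/ob comparison (0.0708%). The median db/db effect was 1.22 and the median ob/ob effect -0.03. The complement gene C1qa, a marker of resident macrophages picked with its values in view, was at 7.17 and 6.93 in lean KsJ and 8.05 and 8.28 in db/db islets, and at 8.13 and 8.19 in lean 6J and 8.22 and 8.18 in ob/ob islets. The db/db arrays thus reached the level of the 6J arrays, and the lean KsJ arrays alone were low; C1qa rose in db/db by 1.12 (adjusted p = 0.0161). For Gpnmb, a glycoprotein gene of lipid-laden macrophages picked likewise, the levels were 3.19 and 4.14 in lean KsJ and 8.24 and 6.30 in db/db, but 3.38 and 3.32 in lean 6J and 3.48 and 3.38 in ob/ob. Both db/db arrays of this table were above all others, but on the separate pair db/db stood at 4.42 against 4.24 in lean KsJ. In the test Gpnmb rose in db/db by 3.61 (adjusted p = 0.0109), had an ob/ob effect of 0.08, and was 3.84 higher in db/db than in ob/ob islets (adjusted p = 0.00953). Mean levels of the whole list were 4.81 and 4.41 on lean KsJ arrays, 6.12 and 5.46 on db/db arrays, 5.24 and 5.14 on lean 6J arrays and 4.88 and 5.35 on ob/ob arrays. Without lean KsJ replicate 2 the median difference was 1.02 with 21 of 22 above 0.

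The ChREBP list holds targets of ChREBP, the transcription factor that senses glucose metabolites in beta cells, with its own gene Mlxipl and its partner Mlx. The db/db and ob/ob effects were -0.37 and -0.69 for Mlxipl, and 0.46 and 0.44 for Mlx. All 17 tested members of this metabolic list had a difference above 0, against 67.7% of all genes. The median db/db effect was 0.94 and the median ob/ob effect -0.46, while 4 members were up in db/db and down in ob/ob (1.09% of all genes were), 2 were up in db/db only (3.79%) and 4 were called in the db/db comparison (5.8%). Arrdc4, an arrestin-domain protein that limits glucose uptake, was at 6.85 and 6.15 in lean KsJ, 9.17 and 8.78 in db/db, 7.02 and 7.42 in lean 6J and 7.29 and 7.45 in ob/ob islets. The db/db arrays were the highest and the lean KsJ arrays the lowest, while lean 6J and ob/ob arrays overlapped. Arrdc4 rose in db/db by 2.47 (adjusted p = 0.0136), with an ob/ob effect of 0.14 and a difference of 2.33 ± 0.55 (adjusted p = 0.153). Txnip, its relative that binds thioredoxin and promotes beta-cell death, was at 10.94 and 10.21, 12.23 and 12.19, 10.96 and 11.17, and 10.97 and 10.65 in the same order of groups. It rose in db/db by 1.64 (adjusted p = 0.0258) with an ob/ob effect of -0.26. Klf10, a zinc finger repressor, was at 6.96 and 6.07 in lean KsJ, 7.65 and 8.42 in db/db, 7.31 and 6.95 in lean 6J and 6.16 and 6.70 in ob/ob islets. It rose in db/db by 1.52 (adjusted p = 0.0293) and had an ob/ob effect of -0.70, with a difference of 2.22 ± 0.47 (adjusted p = 0.143). The other 3 members with opposite directions were Pklr, the liver-type pyruvate kinase (1.01 and -0.68), Rgs16, a regulator of G-protein signalling (1.35 and -0.66), and Bhlhe40, a repressor that also belongs to the clock (0.99 and -0.78). For the lipogenic list members Fasn and Scd1 the db/db and ob/ob effects were 0.12 and -0.23, and -0.21 and -1.49. On the separate pair of arrays 15 of the 17 members were higher in db/db, with a median of 1.08. Intestinal signal was also higher on that db/db array (a median of 4.97 over 22 enterocyte genes), and its part in the ChREBP list was not tested. The list's median difference stayed between 0.71 and 1.09 over 32 settings, with as few as 13 members above 0 (lean KsJ replicate 2 left out, with quantile normalization).

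ChREBP binds pairs of E-boxes. The E-box core CACGTG, a palindrome, lay within 250 bases before a start site in 4 of the 13 list members that had a window in the RefSeq table (30.8%), against 9.22% of the 12135 tested genes with one. The window of Arrdc4, the member with the largest difference, is shown because it holds this core. It lies at chr7:68749239-68749488 on the minus strand of GRCm38.p6, with the E-box and the CCAAT boxes (CCAAT or its complement ATTGG) in capitals.
Arrdc4: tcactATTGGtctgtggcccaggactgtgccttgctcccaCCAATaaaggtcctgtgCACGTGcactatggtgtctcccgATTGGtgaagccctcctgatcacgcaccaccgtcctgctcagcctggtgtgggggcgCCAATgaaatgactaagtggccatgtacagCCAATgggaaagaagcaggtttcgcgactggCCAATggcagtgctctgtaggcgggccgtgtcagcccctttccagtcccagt
The window of Txnip held no such core, which says only that these letters are not in it.

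Other genes up in db/db only act in lipid handling, amine synthesis and the cell cycle brake. Cd36, a fatty acid transporter, was at 4.8 and 4.17 in lean KsJ, 7.39 and 7.38 in db/db, 5.98 and 5.91 in lean 6J and 6.31 and 5.73 in ob/ob islets, and rose in db/db by 2.90 (adjusted p = 0.0141). Its db/db arrays lay above all 6 others. Th, tyrosine hydroxylase of catecholamine synthesis, and Star, which carries cholesterol into mitochondria, both chosen after their values were seen, rose in db/db by 1.85 and 1.10 (adjusted p of 0.0106 and 0.0164), with ob/ob effects of -0.18 and -0.45. On the separate pair of arrays db/db exceeded lean KsJ by 1.19 for Th and by 0.07 for Star. Cdkn1a, which encodes the cell cycle inhibitor p21, was at 7.91 and 7.17 in lean KsJ and 8.85 and 9.24 in db/db islets, and at 8.54, 8.21, 8.63 and 8.79 on the lean 6J and ob/ob arrays. Cdkn1a rose in db/db by 1.5 (adjusted p = 0.0285) with an ob/ob effect of 0.34 and a difference of 1.17 ± 0.46 (adjusted p = 0.277). Irs2, the insulin receptor substrate that sustains beta-cell mass, had effects of 1.56 and -0.35, short of the threshold in both models (adjusted p of 0.0508 and 0.732). Neurog3, the transcription factor of endocrine progenitors, was at 5.61 and 5.65 in lean KsJ, 6.97 and 8.34 in db/db, 7.05 and 7.24 in lean 6J and 7.07 and 6.15 in ob/ob islets. Neurog3 rose in db/db by 2.03 (adjusted p = 0.0248), to below the lean 6J arrays on replicate 1 and above all 6J arrays on replicate 2, and its ob/ob effect of -0.53 left it outside the class. Intestinal genes also fell into this class: 13 of 22 tested enterocyte genes were up in db/db only (3.79% of all genes were), with the brush border enzyme gene Sis, named after seeing its values, at 5.62 and 9.03 in db/db and 2.48 and 5.20 in lean KsJ islets. None of these 13 was called in the difference, and the part of the intestinal signal in other genes of the class was not tested.

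Genes down in db/db only were fewer and dimmer. Of these 106 genes, 62.3% had a mean signal under 4, against 20.9% of all genes, and 33 kept the pattern without lean KsJ replicate 2. Predicted genes aside, the 3 with the smallest p were Tnnt3, a skeletal muscle troponin gene, Sebox, a homeobox gene, and Dnaaf6b, a dynein assembly factor gene, with db/db effects of -1.15, -1.10 and -1.14. Each fell in db/db (adjusted p of 0.0138, 0.0216 and 0.0329), and none was called in the difference (adjusted p of 0.0782, 0.123 and 0.166). On the separate pair of arrays the db/db effects of Tnnt3, Sebox and Dnaaf6b were -0.62, -0.14 and 0. A better measured member was Mafa, the transcription factor of mature beta cells. It was at 9.75 and 9.17 in lean KsJ, 8.24 and 8.16 in db/db, 9.77 and 9.97 in lean 6J and 9.26 and 9.59 in ob/ob islets. The db/db arrays were the lowest of all 8, and the ob/ob arrays lay below their own controls by less. Mafa fell in db/db by 1.26 (adjusted p = 0.0473) with an ob/ob effect of -0.45, and the difference of -0.81 ± 0.46 did not pass (adjusted p = 0.394). On the separate pair it was 8.57 in lean KsJ and 6.90 in db/db islets.

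At the median, cell cycle genes had an effect near 0 in db/db and a positive one in ob/ob islets. Of 33 tested genes of S phase and mitosis, 14 were up in ob/ob only and 2, Tpx2 and Nusap1, were up in ob/ob and down in db/db; none was up in db/db only. The ob/ob effect was above 0 in all 33 with a median of 1.08, the db/db effect above 0 in 17 with a median of 0.10, and the difference below 0 in 31 with a median of -1.16, against 0.25 over all genes. An unadjusted p below 0.05 toward ob/ob was reached by 14, against 2.67% of all genes, but none was called in the difference or in either model after adjustment. Mean levels of the list on the array were 4.78 and 4.58 in lean KsJ, 4.83 and 4.56 in db/db, 4.54 and 4.78 in lean 6J and 5.50 and 6.04 in ob/ob islets. Both ob/ob arrays were above the 6 others, which lay between 4.54 and 4.83. Over 32 settings the median stayed between -1.51 and -0.77; without lean KsJ replicate 2 it was -1.22, and without both doubted KsJ arrays it was -1.09 with 33 of 33 below 0.

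The members with the largest differences act late in the cycle. Ccnb2, a B-type cyclin that drives entry into mitosis, was at 4.0 and 5.19 in lean KsJ, 4.07 and 3.52 in db/db, 4.14 and 4.51 in lean 6J and 5.74 and 6.75 in ob/ob islets. The ob/ob arrays were the highest, while lean KsJ and db/db arrays overlapped, which kept Ccnb2 out of the opposite class. Its effects were -0.80 and 1.92 and its difference -2.72 ± 0.62 (adjusted p = 0.149). The levels of Top2a, the topoisomerase that untangles chromosomes, a list member picked with its values in view, were 4.60 and 4.34, 4.45 and 4.05, 4.30 and 4.83, and 5.76 and 6.8 in the same order of groups, with effects of -0.22 and 1.71. Tpx2, which activates the Aurora A kinase on the spindle, was at 4.99 and 4.82 in lean KsJ, 4.30 and 4.48 in db/db, 4.66 and 4.48 in lean 6J and 5.79 and 6.67 in ob/ob islets, with effects of -0.52 and 1.66. Ube2c, the ubiquitin-conjugating enzyme of the anaphase-promoting complex, had effects of -0.38 and 1.58. Dtl, which targets licensing factors for destruction in S phase and is not in the list, had effects of 0.00 and 1.99. In the direct comparison of the obese models, db/db was below ob/ob for Ccnb2 (-2.45, adjusted p = 0.0375), Top2a (-2.03, adjusted p = 0.0305), Tpx2 (-1.84, adjusted p = 0.0353), Ube2c (-1.77, adjusted p = 0.0485) and Dtl (-1.80, adjusted p = 0.0358). These genes were picked for differences that use the same arrays, so their calls are a description. Over the whole list 5 of 33 genes were called lower in db/db there and none higher, and 80 of all genes (0.515%) were called. The 15 tested cyclins, kinases and inhibitors of G1 had median effects of 0.12 and 0.19. At 6 weeks the same cell cycle list had medians of 0.53 in db/db and 0.28 in ob/ob, with 32 and 29 of 33 genes above 0.

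**Figure D4:**
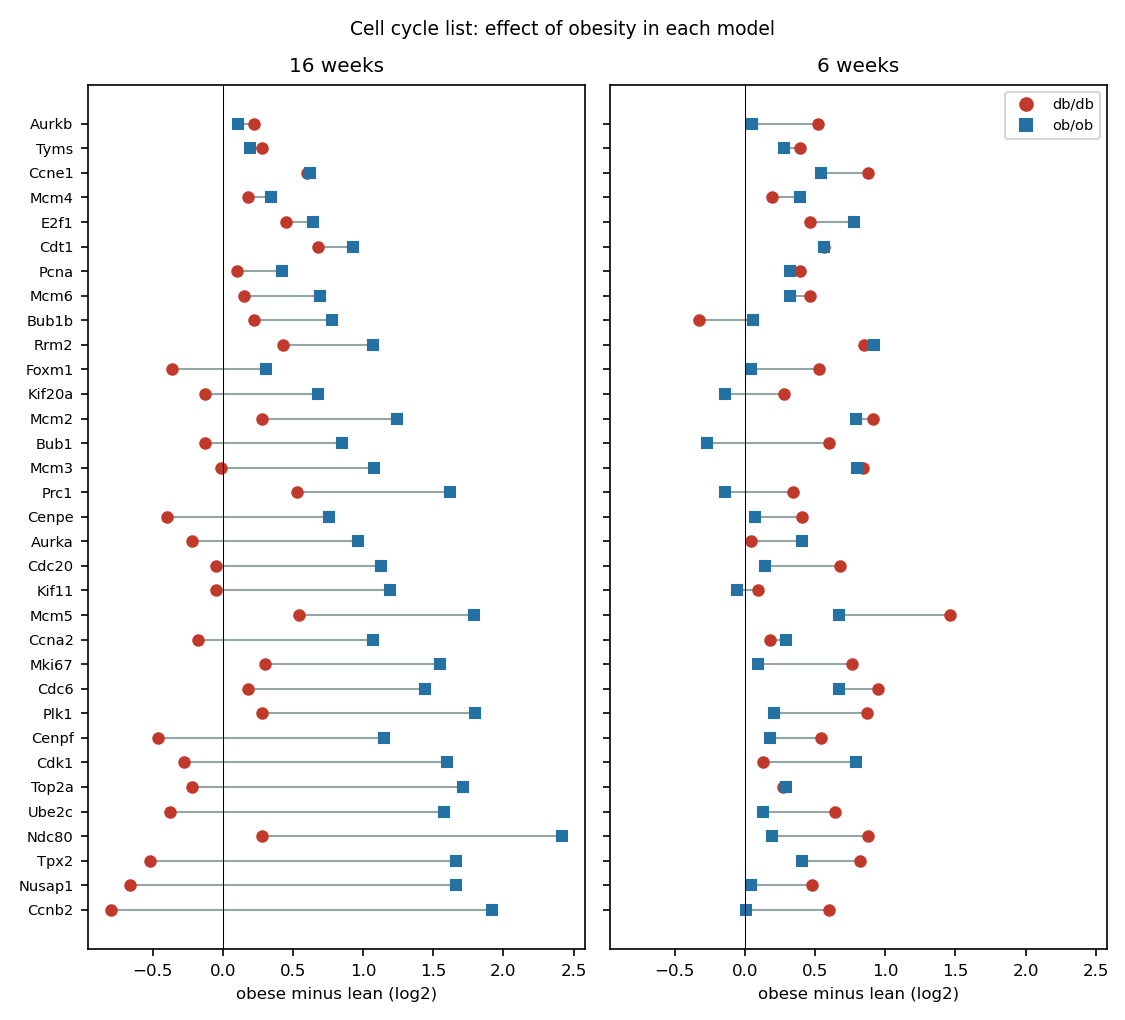
Effect of obesity (log2) on 33 cell cycle genes in db/db (circles) and ob/ob (squares) islets at 16 weeks (left) and 6 weeks (right), in the order of the 16-week difference. At 16 weeks 31 of 33 squares lie right of their circles; at 6 weeks the medians are 0.53 in db/db and 0.28 in ob/ob.

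Promoters of late cell cycle genes are known to carry CCAAT boxes, bound by NF-Y, and a cell cycle homology region, TTTGAA, bound by the DREAM complex. The windows of 3 members that were higher in ob/ob islets are shown as examples. Members not shown had larger ob/ob effects than Ube2c and Cdk1 (1.58 and 1.60), among them Top2a at 1.71 and Tpx2 at 1.66. Each window holds the 250 bases before a start site in GRCm38.p6, 5′ to 3′ in the direction of the gene, as RefSeq gives it. In capitals are TTTGAA (or its complement TTCAAA) and CCAAT (or ATTGG). Ube2c lies at chr2:164769679-164769928 on the plus strand, Ccnb2 at chr9:70421555-70421804 and Cdk1, chosen after its values were seen, at chr10:69352913-69353162, both on the minus strand.
Ube2c: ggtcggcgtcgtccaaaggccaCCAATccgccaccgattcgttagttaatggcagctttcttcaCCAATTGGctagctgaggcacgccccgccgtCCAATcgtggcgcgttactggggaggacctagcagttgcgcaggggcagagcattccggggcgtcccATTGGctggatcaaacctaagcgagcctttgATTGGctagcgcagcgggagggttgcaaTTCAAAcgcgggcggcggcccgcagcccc
Ccnb2: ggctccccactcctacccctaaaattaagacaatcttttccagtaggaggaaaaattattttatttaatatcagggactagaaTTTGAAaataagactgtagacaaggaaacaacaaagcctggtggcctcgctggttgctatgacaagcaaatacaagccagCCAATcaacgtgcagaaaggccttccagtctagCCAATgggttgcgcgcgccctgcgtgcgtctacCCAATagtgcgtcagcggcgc
Cdk1: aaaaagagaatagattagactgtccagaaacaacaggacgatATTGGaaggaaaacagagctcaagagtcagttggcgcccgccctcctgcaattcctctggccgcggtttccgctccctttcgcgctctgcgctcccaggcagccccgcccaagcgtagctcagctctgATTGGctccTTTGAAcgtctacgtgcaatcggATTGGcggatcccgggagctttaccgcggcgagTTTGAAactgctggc
Ube2c holds 6 CCAAT boxes, a pair of which overlap as CCAATTGG, and Ccnb2 and Cdk1 hold 3 each. The homology region occurs once in Ube2c and Ccnb2 and at 2 places in Cdk1. Over the 27 cell cycle genes with a window, 9 (33.3%) held TTTGAA on either strand, against 13% of tested genes, and 20 (74.1%) held CCAAT, against 39.3%. Of the 13 ChREBP list members with a window, 9 (69.2%) held CCAAT and 2 (15.4%) TTTGAA. The windows shown all hold TTTGAA, unlike most of the cell cycle list. A match is a string of letters and not a shown site of binding.

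Single genes of the endoplasmic reticulum and of the interferon response had larger effects in ob/ob islets, whereas the medians of the unfolded protein response list were 0.53 in db/db and 0.40 in ob/ob. Derl3, which removes misfolded proteins from the endoplasmic reticulum, was at 8.07 and 9.93 in lean KsJ, 9.24 and 9.77 in db/db, 6.89 and 6.92 in lean 6J and 9.92 and 10.18 in ob/ob islets. The lean 6J arrays were the lowest of the 8. Its effects were 0.51 and 3.14, and the difference of -2.64 ± 0.95 did not pass (adjusted p = 0.251); a db/db effect just above 0.5 left Derl3 outside the class. Dnajb11, a chaperone of the same compartment and list, was up in ob/ob only with effects of 0.24 and 1.39. Acinar cell genes were also higher on these ob/ob arrays: 12 of 24 tested acinar genes were up in ob/ob only (0.799% of all genes were), their list mean was 9.26 and 8.67 on ob/ob arrays against 7.98 and 7.35 on lean 6J arrays, and their part in Derl3 and Dnajb11 was not tested. The interferon-induced genes Mx2 and Oas2, antiviral effectors, were up in ob/ob only with effects of 1.45 and 1.33. Oas2 levels were 4.42 and 6.27 on the ob/ob arrays and 4.18 and 3.86 on the lean 6J arrays, so that ob/ob replicate 2 set most of the effect, and the mean of the interferon list was 5.57 on ob/ob replicate 1 and 7.09 on replicate 2. The list's median difference was -0.49 over 23 genes, with 3 at an unadjusted p below 0.05 toward ob/ob, and it was 0.44 without ob/ob replicate 2 and -1.18 at the other end of the settings.

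Genes down in ob/ob only included 5 of the 11 called in the ob/ob comparison. Eef1a2, the elongation factor isoform of neurons and muscle, was at 6.22 and 6.34 in lean KsJ, 6.78 and 6.53 in db/db, 7.58 and 7.52 in lean 6J and 5.69 and 5.48 in ob/ob islets. The lean 6J arrays were the highest and the ob/ob arrays the lowest. Eef1a2 fell in ob/ob by 1.97 (adjusted p = 0.0378), with a db/db effect of 0.37 and a difference of 2.34 ± 0.39 (adjusted p = 0.0782). Avpr1b, a receptor for vasopressin that promotes hormone release, was at 4.44 and 4.06, 4.19 and 4.77, 5.85 and 5.85, and 3.78 and 4.22 in the same order. It fell in ob/ob by 1.85 (adjusted p = 0.032), with a db/db effect of 0.23, and lean KsJ was below lean 6J by -1.60 (adjusted p = 0.0141). The other 3 of these 5, named after seeing their values, were Galnt13, Minar1 and a predicted gene. The remaining 6 called genes moved the same way in db/db, among them the branched-chain aminotransferase Bcat1 (1.56 in ob/ob and 2.34 in db/db).

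Hormone receptor, islet regulator and fuel genes were also down in ob/ob only, with no ob/ob effect past the threshold among those given next. Ghsr, the ghrelin receptor of delta cells, was at 6.07 and 5.73 in lean KsJ, 6.11 and 6.09 in db/db, 6.59 and 6.33 in lean 6J and 4.66 and 4.82 in ob/ob islets, so that the ob/ob arrays were below the 6 others. Its effects were 0.20 and -1.72 (adjusted p = 0.691 and 0.0564), and the difference was 1.93 ± 0.40 (adjusted p = 0.143). Irx1 and Irx2, transcription factors of alpha cells, had db/db effects of 0.15 and -0.08 and ob/ob effects of -1.47 and -1.69. Pdk4, the kinase that shuts pyruvate out of the mitochondrion, was at 6.75 and 6.70 in lean KsJ, 5.85 and 6.97 in db/db, 8.53 and 8.49 in lean 6J and 6.24 and 6.11 in ob/ob islets. Here the lean 6J arrays alone were high, with an ob/ob effect of -2.34 (adjusted p = 0.0619). Lama2, a laminin chain, and Srebf2, the regulator of sterol synthesis, had ob/ob effects of -1.53 and -1.16 and db/db effects of 0.40 and 0.00. Of 17 clock genes, 3 list members, Bhlhe41, Nr1d1 and Nr1d2, all transcriptional repressors, were down in ob/ob only (1.41% of all genes were). Their ob/ob effects were -1.29, -1.57 and -1.51 and their db/db effects 0.48, -0.34 and -0.43. Another 4, Dbp, Per3, Ciart and Tef, were down in both models (1.47% of all genes), and 3, Nfil3, Cry1 and Npas2, were up in both (4.45%). Dbp had db/db and ob/ob effects of -1.28 and -1.90, and Per3 of -1.02 and -1.60. All 7 tested delta cell genes had a difference above 0, against 67.7% of all genes, with median effects of 0.20 and -0.72. The list's median difference lay between 0.79 and 1.19 over the settings.

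Among the 169 genes up in db/db and down in ob/ob, the smallest p belonged to Scn3b, Lpin2 and Sorcs1. Scn3b, a regulatory subunit of voltage-gated sodium channels, was at 5.62 and 5.01 in lean KsJ, 6.96 and 7.02 in db/db, 6.61 and 6.84 in lean 6J and 6.04 and 5.78 in ob/ob islets. The db/db arrays were the highest and the lean KsJ arrays the lowest, with ob/ob below lean 6J. Scn3b rose in db/db by 1.68 (adjusted p = 0.0111), with an ob/ob effect of -0.82 (adjusted p = 0.142) and a difference of 2.49 ± 0.33 (adjusted p = 0.0526). Sorcs1, a sorting receptor of the secretory pathway known from mouse diabetes genetics, was at 3.73 and 2.66, 5.14 and 5.28, 4.87 and 4.64, and 3.61 and 4.10 in the same order. It rose in db/db by 2.01 (adjusted p = 0.0136) with an ob/ob effect of -0.90, but on the separate pair of arrays db/db was lower than lean KsJ (4.13 against 4.62). Lpin2, a phosphatidate phosphatase of lipid synthesis, rose in db/db by 1.28 (adjusted p = 0.0113), with an ob/ob effect of -0.54. For Basp1, a neuronal membrane protein picked with its values in view, the effects were 1.10 (adjusted p = 0.0352) and -1.09 (adjusted p = 0.0953). Slc29a4, a monoamine transporter chosen likewise, was at 8.18 and 7.68 in lean KsJ, 8.51 and 8.79 in db/db, 9.11 and 9.01 in lean 6J and 7.58 and 7.28 in ob/ob islets, with effects of 0.72 and -1.63. No gene of the opposite class passed the test in both models.

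Genes of stimulus and secretion were among the opposite class too, with values short of the threshold for the difference. Gpr119, a lipid receptor that raises insulin and incretin release, was at 5.83 and 5.11 in lean KsJ, 6.54 and 7.39 in db/db, 7.96 and 8.09 in lean 6J and 7.56 and 7.42 in ob/ob islets. It rose in db/db by 1.49 (adjusted p = 0.0204) toward the 6J levels, and its ob/ob effect was -0.54. Gcgr, the glucagon receptor, had effects of 1.09 and -0.82, Pfkfb3, which makes the activator of glycolysis, 1.41 and -0.57, and Trib3, a pseudokinase of the stress response, 0.85 and -0.80. Of these, Pfkfb3 passed the test in db/db (adjusted p = 0.0493).

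The 57 genes down in db/db and up in ob/ob were mostly dim: 64.9% had a mean under 4, and 34 kept the pattern without lean KsJ replicate 2. Predicted genes aside, the one with the smallest p was Mir187, a microRNA gene, whose transcript cluster stood at 8.82 and 7.16 in lean KsJ, 5.25 and 5.63 in db/db, 5.23 and 5.33 in lean 6J and 5.79 and 6.35 in ob/ob islets. The lean KsJ arrays were above the 6 others. It fell in db/db by 2.54 (adjusted p = 0.0164), with an ob/ob effect of 0.79 and a difference of -3.33 ± 0.60 (adjusted p = 0.0982). Cd320, the receptor that takes up vitamin B12, was at 5.75 and 6.10 in lean KsJ, 4.90 and 5.33 in db/db, 5.20 and 5.19 in lean 6J and 5.74 and 5.80 in ob/ob islets. It fell in db/db by 0.81 (adjusted p = 0.0387), with an ob/ob effect of 0.57 and a difference of -1.38 ± 0.28 (adjusted p = 0.141). Gfy and Pstpip1, a Golgi protein gene of olfactory neurons and a cytoskeletal adaptor gene of white blood cells, had effects of -0.94 and 0.86 and of -0.50 and 1.02. On the separate pair of arrays the db/db effect was -1.34 for Mir187, 0.34 for Gfy and -0.49 for Pstpip1.

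For the hormone genes Ins2, Gcg and Sst and for Aldh1a3 the interval of the difference included 0. The difference of effects was 0.06 for Ins2 (95% interval -0.44 to 0.55), 0.34 for Gcg (-0.11 to 0.79) and 0.46 for Sst (-0.02 to 0.94). For the peptide hormone gene Pyy it was 0.85 (0.37 to 1.33; adjusted p = 0.167). The levels of Ins2, Gcg and Sst given above lay over the mean level of the brightest of the 10 bins of genes (9.75). Whether the signal still follows the amount of RNA at such levels was not tested. A difference near 0 for these hormone genes therefore does not show that their expression was equal. Aldh1a3, an aldehyde dehydrogenase known as a marker of failing beta cells, was at 4.01 and 5.29 in lean KsJ and 10.79 and 10.94 in db/db, and at 4.31 and 4.76 in lean 6J and 10.43 and 10.16 in ob/ob islets. Obese arrays lay far above lean arrays in both strains. Aldh1a3 rose in db/db by 6.22 (adjusted p = 0.0197), its ob/ob effect was 5.77 (adjusted p = 0.0691), and the 95% interval of the difference ran from -3.08 to 3.97. The thyroxine-binding globulin gene Serpina7 (5.29 and 3.74) and the hyaluronan receptor gene Cd44 (2.63 and 1.72) rose in db/db (adjusted p of 0.0178 and 0.0121) with ob/ob effects in the same direction. Of the gut peptide genes Cck and Gast the effects were 5.42 and 2.57, and 3.18 and 0.62, with differences of 2.85 ± 1.43 and 2.56 ± 0.79 (adjusted p of 0.354 and 0.213). Slc2a2, the glucose transporter of beta cells, had effects of -1.05 and -0.90, and Cox6a2, a cytochrome oxidase subunit, fell in db/db by 3.05 (adjusted p = 0.0136) with an ob/ob effect of -1.15. Of 23 beta-cell genes, 18 had a difference above 0 with a median of 0.29, near the 0.25 of all genes, and the median was -0.03 without both doubted KsJ arrays.

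Ion channel and secretion lists tilted toward db/db, by amounts that depended on lean KsJ replicate 2. The 16 tested calcium and other cation channel genes all had a difference above 0, against 67.7% of all genes, with median effects of 0.52 and -0.54. Without that array their median difference went from 0.90 to 0.62. For 15 potassium channel genes it went from 0.67 to 0.29, and for 16 exocytosis genes from 0.60 to 0.25. Over all genes the median difference went from 0.25 to 0.22, so the potassium channel and exocytosis medians then lay near that of all genes. Cacna2d1, an auxiliary subunit of calcium channels, was at 8.61 and 6.77 in lean KsJ, 9.12 and 8.77 in db/db, 8.98 and 9.13 in lean 6J and 8.47 and 8.51 in ob/ob islets. Cacna1a, which forms P/Q-type channels, had a db/db effect of -0.08 and an ob/ob effect of -0.91, and Cacna1h, which forms T-type channels, -0.41 and -1.54. Kcnk9, a tandem-pore potassium channel gene, was at 2.89 and 2.75 in lean KsJ and 4.71 and 5.48 in db/db islets and rose by 2.27 (adjusted p = 0.0112), with an ob/ob effect of 0.57.

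Other metabolic and stress lists had median differences from near 0 to 0.72. Among 19 sterol synthesis genes the median effects were 0.43 and -0.21, and Sqle, squalene epoxidase, rose in db/db by 1.16 (adjusted p = 0.0263) with an ob/ob effect of -0.07. Respiratory chain genes had medians of 0.15 and 0.31 over 28 genes, and unfolded protein response genes 0.53 and 0.40 over 29, so that both lists had a median difference near 0 (-0.08 and -0.06). Ern1, the kinase and RNase sensor of endoplasmic reticulum stress, rose in db/db by 0.73 (adjusted p = 0.0379) with an ob/ob effect of -0.14. Among antioxidant genes Gclc, which starts glutathione synthesis, rose in db/db by 0.68 (adjusted p = 0.0277) with an ob/ob effect of -0.05. Among stress response genes Chac1, which degrades glutathione, rose in db/db by 1.29 (adjusted p = 0.0339) with an ob/ob effect of -0.46. The 25 tested genes of its list had median effects of 0.12 in db/db and -0.03 in ob/ob islets. Their median difference was 0.15, below the 0.25 of all genes, and the db/db effect was above 0 in 15. On the separate pair of arrays the db/db effect of Chac1 was -0.06, while those of Sqle, Ern1 and Gclc were 1.18, 0.64 and 1.05.

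**Figure D5:**
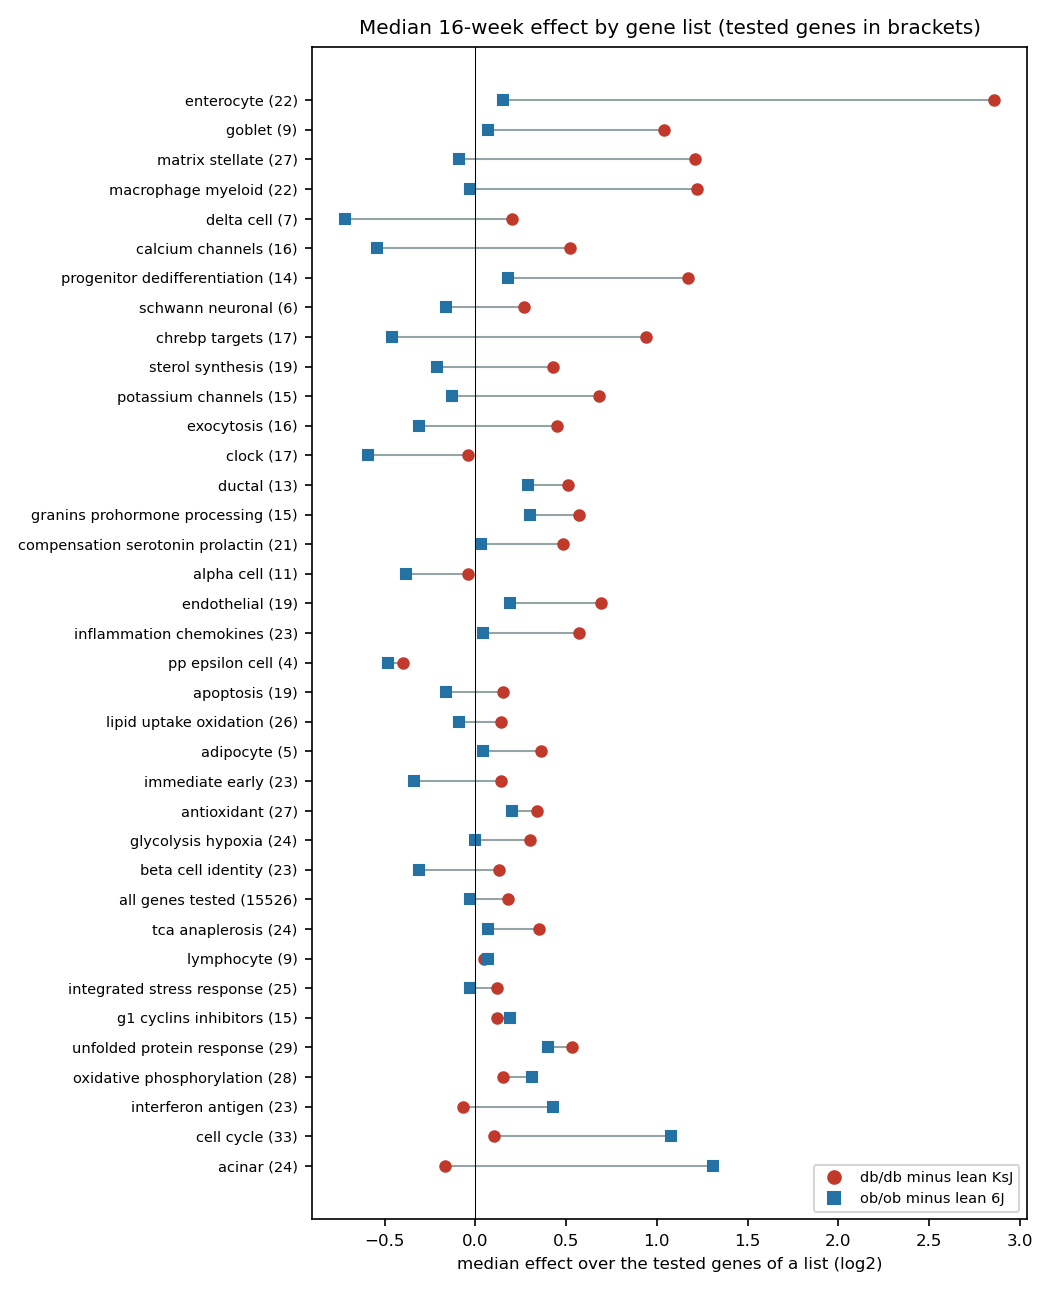
Median db/db effect (circles) and ob/ob effect (squares) at 16 weeks, in log2 units, over the tested genes of each list, ordered by the median difference; the count of tested genes is in brackets. Matrix (1.21 and -0.09) and macrophage genes (1.22 and -0.03) lie near the top, and cell cycle genes (0.10 and 1.08) near the bottom, between marker lists of intestine and acinar cells at either end.

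At 6 weeks no gene passed the test of the difference, with 349 (2.25%) at an unadjusted p below 0.05 against 15.6% at 16 weeks. Without the intestine-rich lean 6J 6-week replicate 2 these were 0 and 195 genes (1.26%), and without its partner, which leaves that array alone in its group, 190 were called and 972 (6.26%) had an unadjusted p below 0.05. The change of the difference between ages was called for 0 genes, with 1258 (8.1%) at an unadjusted p below 0.05; it was called for 6 without lean 6J 6-week replicate 1 and for 0 without replicate 2. For Sh2d5 the 6-week difference was -0.75 ± 0.21, opposite in sign to that of 16 weeks, and the change with age was 2.52 ± 0.30 (adjusted p = 0.0663). For Scn3b it was 0.00 ± 0.33 at 6 weeks, and for Col3a1 0.81 ± 0.38. Genes up in ob/ob only at 16 weeks had 6-week medians of 0.44 in db/db and 0.45 in ob/ob, and genes down in ob/ob only -0.41 and -0.43, so the 6-week effect of these genes had the same sign in both models at the median. Genes up in db/db only had medians of 0.24 and 0.09 at 6 weeks.

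The same difference can be read as a gap between lean strains and a gap between obese models. Between lean groups 639 genes (4.12%) were called at 16 weeks, 566 of them (3.65%) lower in KsJ, whereas between db/db and ob/ob islets 80 were called, 41 (0.264%) higher and 39 (0.251%) lower in db/db. At the median, genes up in db/db only went from 5.42 in lean KsJ to 6.87 in db/db islets, against 6.29 in lean 6J and 6.34 in ob/ob islets. Genes up in db/db and down in ob/ob went from 5.07 to 6.05 on KsJ and from 6.01 to 5.25 on 6J. Lean KsJ medians were thus below lean 6J medians in both classes. The db/db median was above both 6J medians in the first class and beside the lean 6J median in the second. Genes up in ob/ob only had lean medians of 4.83 in KsJ and 4.53 in 6J, and obese medians of 4.85 and 6.08.

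The separate pair of arrays, 1 lean KsJ and 1 db/db, gave the db/db side alone and no test. On it all 22 tested enterocyte genes were higher in db/db, with a median of 4.97, against a median db/db effect of 2.86 in the larger table. The part of this intestinal signal in the shares below was not tested. The db/db array was higher for 92% of the genes up in db/db only and for 13.2% of those down in db/db only, against 56.6% of all genes. For genes up in db/db and down in ob/ob it was higher in 84%, and for the reverse class in 17.5%. In genes up or down in ob/ob only the shares were 42.7% and 33.8%, and the median of the cell cycle list on this pair was 0.03. Col3a1 stood at 6.21 and 7.68, Arrdc4 at 5.52 and 7.60, and Cd36 at 4.56 and 7.10 in lean KsJ and db/db, with Gpnmb as given above.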

How the data were processed

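Islet RNA was hybridised to 1-colour Affymetrix arrays. The authors deposited log2 signals per transcript cluster; MAS5, RMA and Partek appear in the submitters' processing notes with no role given, and their order and settings are not given here. Of 41034 clusters, 23521 had 1 gene in the platform annotation, 1814 several and 15699 no row; 23328 symbols were updated with the GRCm38.p6 gene table. The brightest cluster per gene was kept (22180 genes), and genes under the 30th percentile of the mean (2.99) were dropped, leaving 15526.

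A model with 1 mean for each of 8 groups was fitted to the 16 arrays of the larger table with limma 3.58.1 and eBayes (R 4.3.3; 8 residual degrees of freedom). P-values are two-sided, Benjamini-Hochberg adjusted, and called below 0.05. Separate animals behind the 2 arrays of a group are not stated, so a p-value covers the spread between arrays, which may be technical, and the few arrays limit the precision. The smaller table, whose joint normalization with the larger is not stated, was used for values only, apart from 1 alternative with the table as a block. Named genes were, per pattern, up to 6 called or 3 of smallest p, up to 6 each way of smallest p, up to 3 per list (38 lists, cell type markers aside), and a fixed set; other names are said to be chosen after their values were seen, or are list members given as examples. Members and lists were chosen with earlier results of these data known. The pipeline was tested on simulated data with the same spread in every group. The groups here were not equally even, so that test cannot show how error rates hold for them. Promoter windows are RefSeq's, 250 bases before a start. Alternatives covered filters, normalization, variance models, array weights, covariates, the second table and each of the 16 arrays left out in turn. Those that change only the variance model or the 6-week arrays cannot alter the median of a list. The 32 settings behind the range of a list median include those of the report.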

Additional observations from a re-analysis of the deposited data

Results flagged for a closer look

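Sh2d5 and Hunk differed between the models by the test of the difference itself. The db/db effect exceeded the ob/ob effect by 1.77 (log2) for Sh2d5 and by 1.87 for Hunk, each with an adjusted p of 0.0442 (limma). For both genes the db/db arrays lay above both lean KsJ arrays, and for Hunk both ob/ob arrays lay below both lean 6J arrays. No group of 16-week arrays held enough samples for a single array to be tested against the rest of its group.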

How the results depend on the processing

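Alternatives that change only the filter, the variance model, the size threshold or the 6-week arrays cannot alter the difference of a gene, so its direction there was fixed in advance. Over 32 alternatives, these included, the difference kept its direction for Sh2d5 (1.38 to 1.90) and Hunk (1.63 to 2). The number of genes called, 2 with the settings of the report, did not stay the same. It was 0 with no filter on dim genes, after quantile normalization of all clusters or of the tested genes, with array weights, with the 16-week arrays alone, with the acinar and enterocyte means or the Xist level as covariates, and with a log2 difference of at least 1. It was 16 with a filter at the 50th percentile, 9 with eBayes trend and robust options, 4 with no variance moderation, 46 with both tables and the table as a block, 9 without lean KsJ replicate 2 and db/db replicate 2, and 1 with lean KsJ replicate 2 left out and quantile normalization. Leaving out 1 array at a time gave 0 to 3730 genes, the highest without lean KsJ replicate 1; the cause was not tested. Leaving out a 6-week array gave 0 to 2 genes. These 8 fits, quantile normalization of the tested genes, and quantile normalization of all clusters without lean KsJ replicate 2 were chosen after seeing the data.

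Genes in db/db only numbered 1077 after median centring, 211 with an effect of at least 1.5 in db/db, 407 with an effect under 0.25 in ob/ob, and 587 to 2273 with 1 array left out. Genes in ob/ob only numbered 82 and 184 under the same size rules, and genes in opposite directions 13 with an effect of at least 1 in each model. With 1 array left out the opposite class held 194 (without lean KsJ replicate 2) to 927 genes (without lean KsJ replicate 1). Fewer genes under a stricter size rule, and more where a single array must be passed, follow from the rules themselves.

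Some signs turned, in small differences and in larger ones such as Uty and Ctrc. With both tables, Aldh1a3 went from 0.45 to -0.09 and Ins2 from 0.06 to -0.08. As a mean over clusters, Cox5b went from 0.61 to -0.57. Ctrc went from -1.34 to 0.49 with the covariate means and to 0.07 without lean KsJ replicate 2 and with quantile normalization. In that setting Nkx6-1 went from 0.17 to -0.25, Pdx1 from 0.30 to -0.25 and Ppy from 0.08 to -0.13, and without both doubted KsJ arrays they stood at -0.36, -0.13 and -0.16. With the Xist level as a covariate Slc2a2 went from -0.15 to 0.04, Ucn3 from -0.03 to 0.15 (0.1 after median centring), Uty from -2.78 to 0.64 and Xist, by construction, to 0. With 1 array left out the differences ranged from -0.19 to 1.09 for Aldh1a3, -3.18 to 0.49 for Ctrc, -0.02 to 2.03 for Ghrl, -0.49 to 0.15 for Hspa5, -0.09 to 0.21 for Ins2, -0.18 to 0.52 for Nkx6-1, -0.05 to 0.2 for Ppy, -0.53 to 0.23 for Slc2a2 and -0.36 to 0.29 for Ucn3.

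No paired analysis was possible because the sample titles share no replicate number between groups that marks a common animal, litter or day. A group of 2 arrays gives wide intervals, a gene under a log2 mean of 4 lies near the dim end of the signal, and an array left out leaves a lone array assumed to vary like the other groups.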

Other observations

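Genes of hormone granules, which are not described above as a group, had a median difference of 0.54 over 15 tested members, against 0.25 over all genes. Of the 15, 13 were above 0, against 67.7% of all genes, and the median ranged from 0.17 to 0.70 over the settings. Scg5, Slc18a1, Chgb and Pam were up in db/db only, with db/db effects of 1.23, 1.34, 1.15 and 1.15 and ob/ob effects of 0.13, 0.38, 0.30 and 0.40. They encode a chaperone of prohormone convertase, a vesicular amine transporter, a granin and the enzyme that amidates peptide hormones. Slc30a8, the zinc transporter of insulin granules, had effects of -0.85 and -0.56, and Vgf, a secreted precursor protein, 2.92 and 2.11. None of the 15 was called in the difference, and 3 had an unadjusted p below 0.05 in the direction of db/db, against 12.9% of all genes.

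Endothelial genes, markers of islet capillaries, had median effects of 0.69 in db/db and 0.19 in ob/ob islets, with 18 of 19 differences above 0, against 67.7% of all genes. The median difference was 0.51, and it was 0.18 without lean KsJ replicate 2, 0.91 without replicate 1 and -0.12 without lean KsJ replicate 2 and db/db replicate 2. List means on the lean KsJ arrays were 6.37 and 5.63. Cdh5, the cadherin of endothelial junctions, had effects of 1.19 and 0.30. Among 9 tested lymphocyte genes the median effects were 0.05 and 0.07, with Cd3e, of the T-cell receptor complex, at -0.10 and -0.39. Regenerating protein genes differed among themselves: the effects were 0.64 and 3.26 for Reg2 and -0.34 and 1.45 for Reg1, but 2.52 and 2.70 for Reg3b. The standard error of the Reg3b difference was 2.96, and acinar levels moved with these genes in ob/ob islets, as given above; their part was not tested. All genes of this section are list members picked with their values in view.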
